A study of Homo sapiens with 24 samples.

Results

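The genes described here encode SR proteins, heterogeneous nuclear ribonucleoproteins (hnRNPs) and related RNA-binding splicing regulators. They are 47 of the 60366 entries of the count table, chosen by gene symbol, and all 47 symbols were found. They fall into 4 classes: 14 SR proteins and TRA2 proteins, 24 hnRNPs with SYNCRIP and the PTB proteins, 6 tissue-regulated splicing factors (ESRP1, ESRP2, RBFOX2, MBNL1, MBNL2 and MBNL3), and 3 genes for TDP-43 (TARDBP) and the FET proteins EWSR1 and TAF15. Their polyadenylated RNA was counted in 24 RNA-seq libraries from the human pancreatic adenocarcinoma cell lines BXPC3, MIAPACA2 and PSN1, which the study describes as MTAP-deleted and which carry the genotype label WT. Each line was given AM-9747, a tool compound that inhibits the arginine methyltransferase PRMT5 in cooperation with methylthioadenosine (MTA), the metabolite that builds up without MTAP, or the DMSO vehicle for 6 days. The dose was 100 nM in BXPC3 and PSN1 and 150 nM in MIAPACA2, and each of the 6 groups of line and treatment had 4 libraries. The purpose was to see how PRMT5 inhibition changes gene expression. The labels do not say whether the 4 libraries of a group came from separate cultures, so p-values measure the spread between these libraries, which may be technical, and each line is a single cell population.

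SR proteins carry an RNA recognition motif and a domain rich in arginine and serine, bind exonic enhancers and recruit the spliceosome to nearby splice sites. hnRNPs coat the nascent transcript, and many of them repress the inclusion of exons or promote it depending on where they bind. Many members control their own level through an alternative exon or intron that sends the transcript to nonsense-mediated decay (NMD), a quality control that destroys messages with an early stop codon. PRMT5 places symmetric dimethylarginine on Sm proteins of the spliceosome and on several RNA-binding proteins with arginine and glycine repeats, and its inhibition is known for altering splicing.

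Total counts ran from 22412691 to 45561185 per library. Levels are given as CPM (counts scaled to a common library size), with libraries adjusted by the trimmed mean of M values. The lines differed in quality. Mitochondrial genes took 4.34 to 10.2% of counts in BXPC3 and 6.58 to 20.5% in MIAPACA2, but 17.4 to 43.8% in PSN1 vehicle and 7.98 to 31.1% in PSN1 given AM-9747. PSN1 vehicle replicate 1 stood apart from the other PSN1 vehicle libraries, with 24738 genes detected against 16646 to 21467. The biological coefficient of variation was lowest in the BXPC3 fit (26.6%), followed by MIAPACA2 (32.1%), and highest in the PSN1 fit (55.1%). The epithelial list of 6 markers was summed at 6060 to 10100 CPM in BXPC3 vehicle, 1280 to 1620 CPM in MIAPACA2 vehicle and 1480 to 2010 CPM in PSN1 vehicle. In MIAPACA2 vehicle EPCAM and CDH1 averaged 0.0432 and 0.13 CPM, while KRT8, KRT18, KRT19 and CLDN4 averaged 681, 730, 23.7 and 42.7 CPM. In PSN1 vehicle CDH1 averaged 0.625 CPM and EPCAM 9.06 CPM, while KRT8, KRT18, KRT19 and CLDN4 averaged 420, 966, 168 and 52.2 CPM. With AM-9747 the epithelial list was at 4630 to 6400 CPM in BXPC3. There KRT19 (1730 to 993 CPM on average) and CDH1 (581 to 423 CPM) were lower and EPCAM was higher (115 to 132 CPM). Lists for other cell types moved with treatment in places. The mesenchymal list went from 67.6 to 77.2 CPM to 94.6 to 99.9 CPM in BXPC3, where SNAI2 held most of it (57.2 to 72.8 CPM on average). In MIAPACA2 it went from 7960 to 9650 CPM to 5940 to 7710 CPM. That sum is almost wholly VIM (8860 to 6890 CPM), while SNAI2 was slightly higher with treatment (0.242 to 0.333 CPM). The endothelial list (3 of 3 markers at 1 CPM or more) went from 15.6 to 20.5 CPM to 29.5 to 34.3 CPM in BXPC3, where CDH5 (11.2 to 24.1 CPM on average) and VWF (1.58 to 4.94 CPM) were higher and PECAM1 was lower (4.58 to 2.29 CPM), and the fibroblast list in MIAPACA2 (2 of 5 at 1 CPM or more, DCN at 0 in vehicle) from 1660 to 2830 CPM to 954 to 1610 CPM. That sum is almost wholly COL1A2 (2210 to 1180 CPM), while COL1A1 (1.45 to 2.99 CPM) and PDGFRB (0.126 to 0.54 CPM) were higher with treatment. In PSN1 the fibroblast list went from 22.1 to 34.2 CPM to 50.8 to 69.3 CPM (3 of 5, then 5 of 5 markers at 1 CPM or more), and the acinar and islet list went from 80.1 to 106 CPM to 0.535 to 2.44 CPM (1 of 5 at 1 CPM or more, PRSS1, with INS and GCG at 0). The endothelial list in PSN1 went from 30.1 to 39.2 CPM to 16.8 to 25.8 CPM (1 of 3 markers at 1 CPM or more, PECAM1). VWF and CDH5 were slightly higher there with treatment. The part of these lists in the results below was not tested.

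A difference between treatments was tested gene by gene with edgeR's quasi-likelihood test in each line alone, and a member is said to have risen or fallen where its Benjamini-Hochberg adjusted p over all genes tested was below 0.05. In BXPC3, 46 members were tested and 12 passed, 10 higher and 2 lower. Of all 17638 genes tested in that line 29.2% passed, 13.2% higher and 16% lower. In MIAPACA2, 12 of 43 members passed, 1 higher and 11 lower, against 13.6% of 18090 genes, 6.73% higher and 6.84% lower. In PSN1, 7 of 45 members passed, 5 higher and 2 lower, against 10.7% of 18287 genes, 4.52% higher and 6.17% lower. SRSF12 had too few counts to be tested in any line, ESRP1 was not tested in MIAPACA2 and PSN1, and ESRP2 and MBNL3 were not tested in MIAPACA2. The share of members that passed was therefore close to that of all genes in BXPC3, while members lay mostly on the lower side in MIAPACA2 (25.6% of those tested) and on the higher side in BXPC3 (21.7%). In bulk RNA, a change in the number of cells of a type and a change in RNA per cell cannot be told apart.

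**Figure D1:**
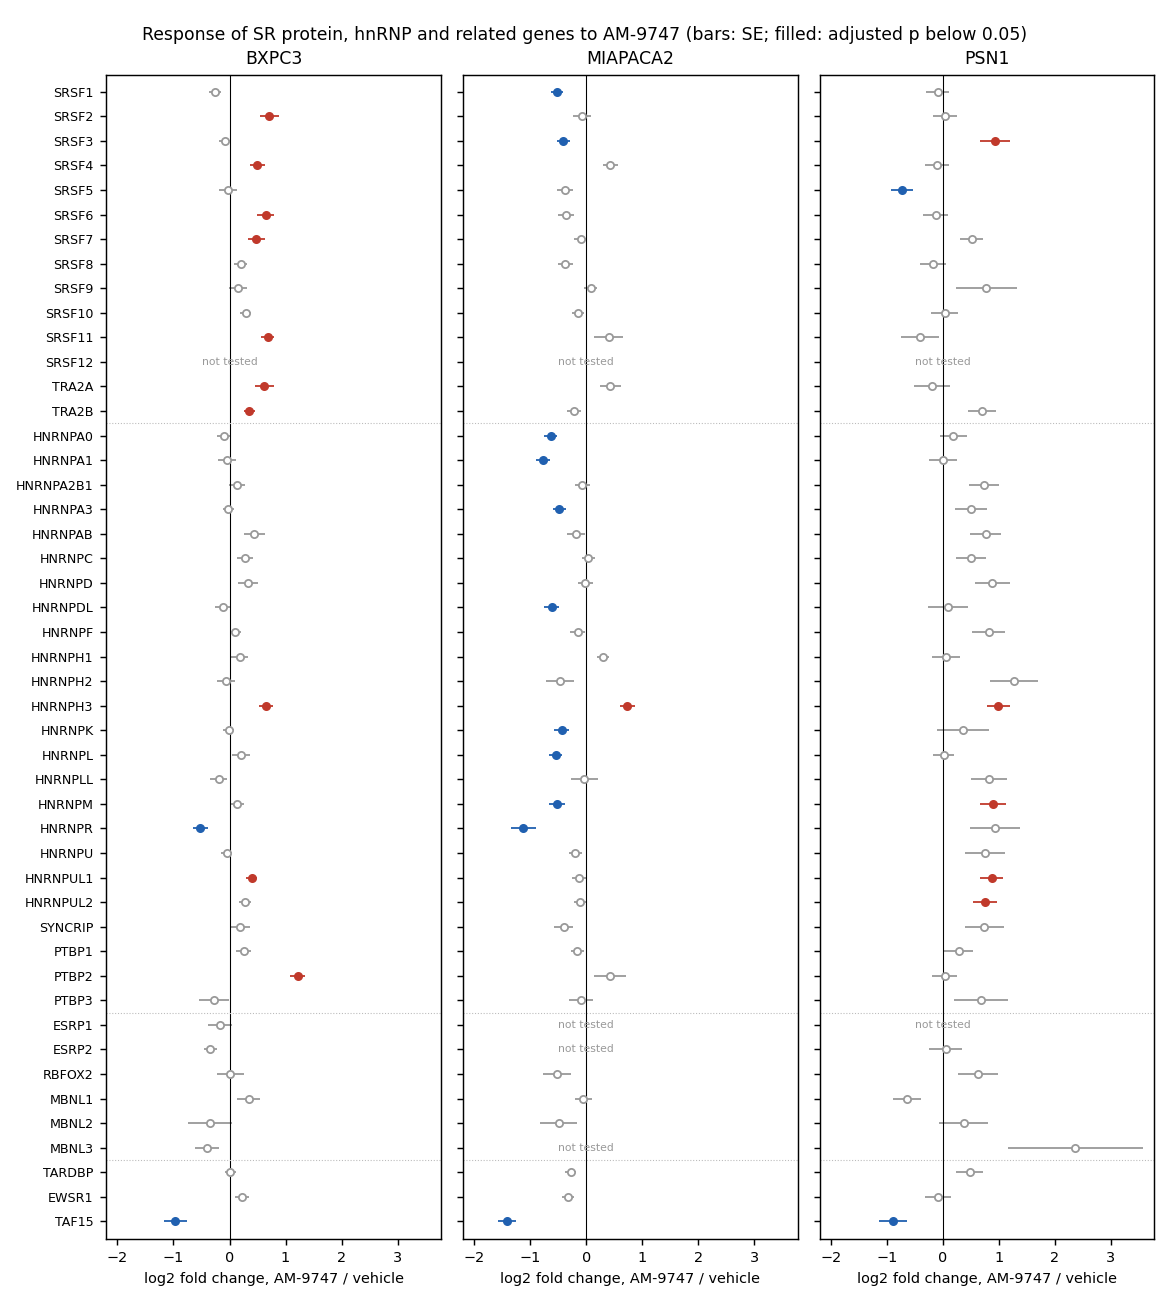
Log2 fold change of each member with AM-9747 against vehicle (x axis) in BXPC3, MIAPACA2 and PSN1, with 4 libraries per group; bars are standard errors, filled points have an adjusted p below 0.05 (red higher, blue lower), and dotted lines separate the 4 classes. TAF15 lies to the left and HNRNPH3 to the right in all 3 lines, SR proteins lie mostly to the right in BXPC3, and hnRNPs lie mostly to the left in MIAPACA2 and to the right in PSN1.

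TAF15, an RNA-binding FET protein related to EWSR1 that also belongs to the transcription machinery, fell in all 3 lines. The gene lies on chromosome 17 (chr17:35713791-35864615, plus strand, GRCh38). In BXPC3 vehicle its level was 142, 110, 138 and 168 CPM, and with AM-9747 it was 52, 63, 74 and 94.9 CPM. In MIAPACA2 the vehicle libraries held 180, 156, 154 and 181 CPM and the treated libraries 67.6, 69.1, 45 and 65.9 CPM. In PSN1 the values were 224, 178, 134 and 201 CPM in vehicle and 73.8, 82.2, 126 and 125 CPM with AM-9747. Every treated library lay below every vehicle library of its own line, and the margin was narrow in PSN1, where the lowest vehicle library (134 CPM) lay close to the highest treated library (126 CPM). TAF15 was picked from the genes called, which favours such separation, and its share over all genes was not counted. The log2 fold change was -0.97 ± 0.20 (SE, n = 4 per group; 1.95-fold lower; adjusted p = 0.00588 by edgeR) in BXPC3. It was -1.41 ± 0.15 (2.67-fold lower; adjusted p = 5.96e-04) in MIAPACA2 and -0.89 ± 0.26 (1.86-fold lower; adjusted p = 0.049) in PSN1. No difference in response between the lines was shown for TAF15 (adjusted p = 0.324), nor in its vehicle level (adjusted p = 0.214). TAF15 shares no exon with another gene at 5 CPM or more. Its family member EWSR1 did not pass in any line in this test. In BXPC3 EWSR1 stood at 302 ± 28.2 CPM in vehicle (SD, n = 4) and 353 ± 39.3 CPM with AM-9747. In MIAPACA2 all 3 genes of the TDP-43 and FET class were lower at an unadjusted p below 0.05 by edgeR. There the alternative tools DESeq2 and voom called EWSR1 lower, while in BXPC3 voom called it higher.

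HNRNPH3, a relative of HNRNPH1 and HNRNPF that binds runs of guanine, rose in all 3 lines. Its gene lies at chr10:68331174-68343191 on the plus strand of GRCh38. Vehicle libraries of BXPC3 held 182, 173, 178 and 161 CPM, and treated libraries 238, 259, 273 and 318 CPM. MIAPACA2 went from 183, 179, 186 and 164 CPM to 314, 316, 223 and 312 CPM. PSN1 went from 125, 112, 99.9 and 114 CPM to 174, 239, 233 and 274 CPM. The groups did not overlap in any line, and a single treated MIAPACA2 library, at 223 CPM, sat well below its 3 companions. HNRNPH3 too was picked from the genes called, which favours such separation, and its share over all genes was not counted. The rise was 0.65 ± 0.12 on the log2 scale in BXPC3 (1.57-fold, adjusted p = 0.00335 by edgeR), 0.73 ± 0.13 in MIAPACA2 (1.66-fold, adjusted p = 0.00588) and 0.99 ± 0.21 in PSN1 (1.98-fold, adjusted p = 0.0163), and no difference between the lines was shown (adjusted p = 0.374). Its paralogs HNRNPH1, HNRNPH2 and HNRNPF did not pass in any line in this test. HNRNPH1 had a log2 fold change of 0.18 ± 0.15, 0.30 ± 0.11 and 0.06 ± 0.25 in BXPC3, MIAPACA2 and PSN1, with adjusted p of 0.389, 0.11 and 0.904. HNRNPF had one of 0.10 ± 0.10, -0.15 ± 0.13 and 0.82 ± 0.29, with adjusted p of 0.482, 0.489 and 0.0961. The log2 change of HNRNPH2 in PSN1, given below, was larger than that of HNRNPH3. Some alternatives called these paralogs. In PSN1 HNRNPH2 and HNRNPF were called with voom, a replicate block and a joint fit of all groups, and HNRNPH2 also with DESeq2. In MIAPACA2 HNRNPH1 was called with voom. For TAF15 and HNRNPH3 the calls in BXPC3 and MIAPACA2 held on leaving out each library of the line in turn. The PSN1 call of TAF15 was lost without vehicle replicate 2 or 4 or any single AM-9747 replicate (adjusted p up to 0.165), and that of HNRNPH3 without vehicle replicate 2 or 4 or AM-9747 replicate 2 or 4 (adjusted p up to 0.0656).

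**Figure D2:**
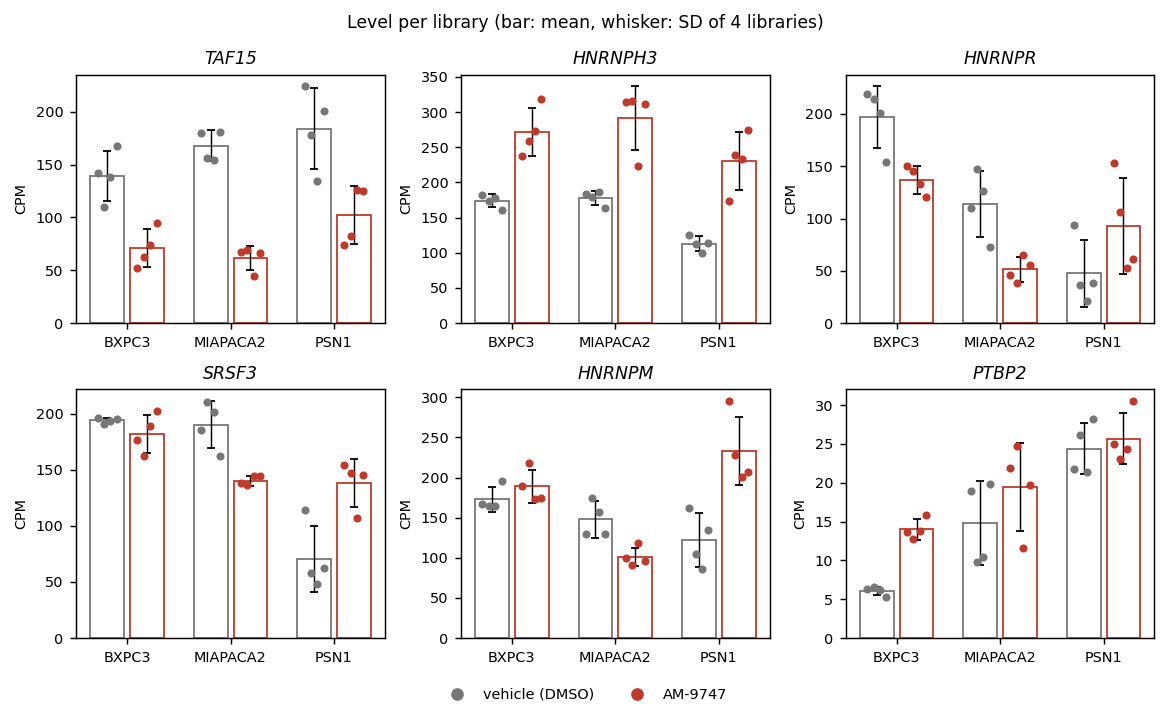
CPM per library (y axis) of TAF15, HNRNPH3, HNRNPR, SRSF3, HNRNPM and PTBP2 in the 3 lines with vehicle (grey) or AM-9747 (red); bars are means, whiskers SD of 4 libraries, and points single libraries. TAF15 and HNRNPH3 separate by treatment in every line, HNRNPR, SRSF3 and HNRNPM move down in MIAPACA2 and lie higher in treated PSN1, and PTBP2 separates in BXPC3. The genes were picked from those called, which favours separation.

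The bases before RefSeq's start site are shown for PTBP2, the member with the largest rise in BXPC3, and for SRSF3, called lower in MIAPACA2 and higher in PSN1 (both described below). RefSeq's table of promoters on GRCh38.p14 held 40 of the 47 members. SRSF2, TRA2A, HNRNPA1, ESRP1, ESRP2, RBFOX2 and TAF15 were not matched. Each sequence is the 250 bases up to the annotated start, 5′ to 3′ on the plus strand, at chr1:96722388-96722637 (PTBP2) and chr6:36594112-36594361 (SRSF3), and neither window holds a base of an exon in the basic set of GENCODE 29. GENCODE 29 has the PTBP2 gene begin upstream, at 96721665, so the PTBP2 window lies within that longer gene model. It has the SRSF3 gene begin at 36594353, so the last bases of the SRSF3 window lie within that gene model too. Capitals mark matches on either strand to the CCAAT box, known for binding NF-Y, to the GGGCGG box, known for binding SP1, and to the TATAAA box, known for binding TBP. The core of ETS sites, CCGGAAG, was searched as well. No match overlapped another.
PTBP2: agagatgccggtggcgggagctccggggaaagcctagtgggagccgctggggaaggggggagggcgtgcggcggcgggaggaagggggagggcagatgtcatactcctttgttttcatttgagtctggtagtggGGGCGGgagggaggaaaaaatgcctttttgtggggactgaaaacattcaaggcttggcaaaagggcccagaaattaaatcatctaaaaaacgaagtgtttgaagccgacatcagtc
SRSF3: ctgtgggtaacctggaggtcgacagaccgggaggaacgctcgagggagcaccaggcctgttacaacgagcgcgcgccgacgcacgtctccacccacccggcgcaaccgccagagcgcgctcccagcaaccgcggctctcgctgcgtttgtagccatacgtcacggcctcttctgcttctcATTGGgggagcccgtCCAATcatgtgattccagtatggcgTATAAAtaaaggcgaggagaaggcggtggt
The PTBP2 window holds GGGCGG once, 116 bases before the start on the plus strand. The SRSF3 window holds CCAAT at 70 bases on the minus strand and at 55 bases on the plus strand, and TATAAA at 30 bases. Over all 35116 promoters of this length, 32% held CCAAT, 42.6% GGGCGG, 8.52% CCGGAAG and 10.7% TATAAA. Among the 40 member promoters 16 (40%) held CCAAT, 26 (65%) GGGCGG, 5 (12.5%) CCGGAAG and 5 (12.5%) TATAAA. Member promoters had a median of 25 CpG dinucleotides against 11 over all promoters. A match is a description of the letters and not a bound site.

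Among SR and TRA2 genes, 7 of the 13 tested rose in BXPC3 and none fell: SRSF2, SRSF4, SRSF6, SRSF7, SRSF11, TRA2A and TRA2B. Over all genes tested in that line, 13.2% were higher and 16% lower. The median log2 fold change of the 13 was 0.35, against 0 over all genes tested, and 10 were above 0. For the lower direction, 1 SR gene had an unadjusted p below 0.05 in edgeR, DESeq2 called none lower, and voom with library weights called 1 lower. SRSF2, whose product bridges enhancers and the U1 and U2 particles, went from 127, 132, 143 and 181 CPM in vehicle to 191, 210, 251 and 297 CPM, a log2 change of 0.71 ± 0.17 (adjusted p = 0.0129 by edgeR). SRSF11 went from 129, 130, 123 and 117 CPM to 179, 195, 197 and 227 CPM, a log2 change of 0.68 ± 0.11 (adjusted p = 0.0018). SRSF6 went from 171, 182, 177 and 188 CPM to 218, 260, 294 and 347 CPM, a log2 change of 0.65 ± 0.15 (adjusted p = 0.00965). In each of these genes all 4 treated libraries lay above all 4 vehicle libraries. Picking the largest called rises favours such separation, and its share over all genes was not counted. TRA2A, a partner of the SR proteins at purine-rich enhancers, had a log2 change of 0.62 ± 0.17 (adjusted p = 0.021). SRSF4, SRSF7 and TRA2B had smaller changes of 0.50 ± 0.13, 0.48 ± 0.15 and 0.35 ± 0.09, with adjusted p of 0.0201, 0.0411 and 0.0185. The calls of SRSF4, SRSF7, TRA2A and TRA2B were lost without BXPC3 vehicle replicate 1, 2 or 3 or AM-9747 replicate 3 (and SRSF7 also without AM-9747 replicate 4), with adjusted p up to 0.0703, 0.112, 0.064 and 0.0676, and 6 to 18 members passed over the 8 omissions. In the joint fit of 6 groups SRSF2, SRSF4 and SRSF6 were called in BXPC3, and SRSF7 (adjusted p = 0.0521), SRSF11 (0.119), TRA2A (0.127) and TRA2B (0.259) were not. Without strand information in the counting, which is not given in the sources used here, reads of SRSF2 could include those of MFSD11 on the other strand, which covers 36.7% of its exon bases and stood at 10.8 CPM.

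In MIAPACA2, 2 of the 13 SR genes tested fell and none rose, against 6.84% lower and 6.73% higher over all genes. The median log2 fold change of the 13 was -0.15, and 4 were above 0. In the higher direction 2 SR genes had an unadjusted p below 0.05 by edgeR, DESeq2 called 1 and voom 3. SRSF1, the founding member of the family, went from 161, 179, 172 and 185 CPM to 120, 118, 127 and 110 CPM, a log2 change of -0.53 ± 0.11 (1.44-fold lower, adjusted p = 0.00968 by edgeR). SRSF3, the smallest SR protein and a regulator of splicing and mRNA export, went from 185, 210, 201 and 162 CPM to 138, 136, 144 and 144 CPM, a log2 change of -0.41 ± 0.11 (adjusted p = 0.0361). Neither gene's groups overlapped, but both were picked from the genes called, which favours such separation. Its share over all genes was not counted. The call of SRSF3 was lost without MIAPACA2 vehicle replicate 1, 2 or 3 or AM-9747 replicate 1, 2 or 4 (adjusted p up to 0.117). In BXPC3, SRSF1 stood at 171, 155, 160 and 140 CPM in vehicle and 140, 127, 127 and 127 CPM with AM-9747 (log2 change -0.26 ± 0.10, adjusted p = 0.0835). The exons of SRSF1 share 56.6% of their bases with AC015813.2, a gene on the same strand, which stood at 67.5 CPM over all libraries and fell in BXPC3 (log2 change -1.46 ± 0.30, adjusted p = 0.00535), so the split of reads between the pair is uncertain.

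In PSN1, SRSF3 rose and SRSF5 fell among the 13 SR genes tested, against 4.52% higher and 6.17% lower over all genes. The median log2 fold change of the 13 was -0.09, against 0.03 over all genes. SRSF3 went from 114, 58, 48.1 and 62.1 CPM in vehicle to 154, 147, 107 and 145 CPM, a log2 change of 0.94 ± 0.27 (1.91-fold, adjusted p = 0.049 by edgeR), and vehicle replicate 1 (114 CPM) reached above the lowest treated library. SRSF5 went from 323, 308, 304 and 387 CPM to 182, 227, 201 and 211 CPM with no overlap, a log2 change of -0.73 ± 0.19 (1.66-fold lower, adjusted p = 0.0372). Picking it from the genes called favours such separation, and the share over all genes was not counted. SRSF5 did not pass in MIAPACA2 (log2 change -0.38 ± 0.14, adjusted p = 0.0974) or BXPC3 (-0.03 ± 0.16, adjusted p = 0.919). SRSF12, the SR gene with the lowest level, had 5 counts over the 4 BXPC3 vehicle libraries, 14 in MIAPACA2 vehicle and 2 in PSN1 vehicle. With AM-9747 it had 0 counts in BXPC3 and more counts than in vehicle in MIAPACA2 and PSN1. The joint fit of 6 groups called it in PSN1.

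**Figure D3:**
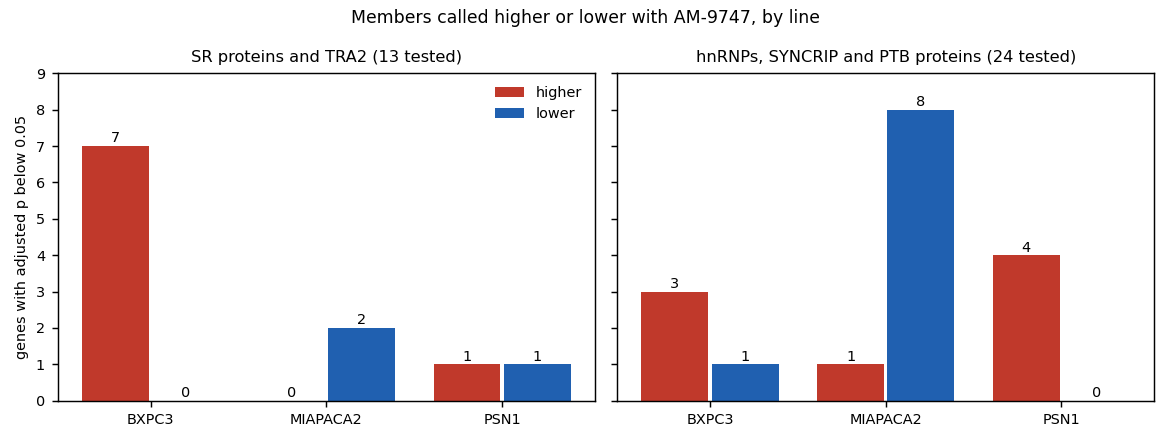
Number of genes with an adjusted p below 0.05 (y axis) that were higher (red) or lower (blue) with AM-9747 in each line, for the 13 SR and TRA2 genes tested (left) and the 24 hnRNP, SYNCRIP and PTB genes (right). SR genes were called mostly higher in BXPC3 (7 higher, 0 lower), and hnRNP genes mostly lower in MIAPACA2 (1 higher, 8 lower); over all genes 13.2% were higher and 16% lower in BXPC3, and 6.73% and 6.84% in MIAPACA2.

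Among the 24 hnRNP, SYNCRIP and PTB genes, 8 fell and 1 rose in MIAPACA2: HNRNPA0, HNRNPA1, HNRNPA3, HNRNPDL, HNRNPK, HNRNPL, HNRNPM and HNRNPR were lower and HNRNPH3 was higher. Over all genes tested in that line, 6.84% were lower and 6.73% higher. The log2 fold change was below 0 in 20 of the 24, with a median of -0.17 against -0.0021 over all genes. HNRNPR, related to SYNCRIP and active in RNA processing and transport, went from 110, 147, 126 and 72.3 CPM to 45.9, 38.4, 65.5 and 55.4 CPM, a log2 change of -1.12 ± 0.22 (2.17-fold lower, adjusted p = 0.00858 by edgeR). HNRNPA1, an abundant repressor of splice sites, went from 1968, 1687, 1646 and 1853 CPM to 1057, 976, 910 and 1201 CPM, a log2 change of -0.76 ± 0.13 (1.7-fold lower, adjusted p = 0.00371). HNRNPA0, a member of the same A/B group, went from 97.6, 118, 124 and 118 CPM to 70.3, 71, 75 and 72.6 CPM, a log2 change of -0.64 ± 0.11 (adjusted p = 0.00468). HNRNPDL went from 278, 236, 225 and 286 CPM to 168, 175, 134 and 181 CPM, a log2 change of -0.62 ± 0.14 (adjusted p = 0.0161). HNRNPM, known for its part in splicing during epithelial-mesenchymal transition, went from 129, 175, 157 and 130 CPM to 99.6, 91.3, 118 and 95.6 CPM, a log2 change of -0.52 ± 0.14 (adjusted p = 0.0305). All 5 of these genes had treated libraries that lay below every vehicle library. They were picked from the genes called, which favours such separation, and its share over all genes was not counted. HNRNPL, HNRNPA3 and HNRNPK had log2 changes of -0.55 ± 0.11, -0.48 ± 0.12 and -0.44 ± 0.13, with adjusted p of 0.00887, 0.0261 and 0.0493. Between 7 and 14 members passed in this line when each library was left out in turn, and HNRNPA3, HNRNPK and HNRNPM were each lost without AM-9747 replicate 1, 2 or 4 (adjusted p up to 0.0943, 0.146 and 0.0976). Without a vehicle replicate, HNRNPA3 was lost on omitting 1 or 3, HNRNPK on omitting 1, 2 or 3 and HNRNPM on omitting 2 or 3. HNRNPDL was lost without vehicle replicate 1 or AM-9747 replicate 1 (adjusted p up to 0.0559). In the joint fit of 6 groups, which assumes 1 spread for all lines, HNRNPR (adjusted p = 0.0564), HNRNPM (0.0835), HNRNPDL (0.184), HNRNPA3 (0.191) and HNRNPK (0.527) were not called in MIAPACA2, nor was SRSF3 (0.225), while HNRNPA0, HNRNPA1 and HNRNPL were.

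Scaling by library totals alone, with no adjustment for composition, moved the median log2 fold change of all genes by 0.15 in MIAPACA2 and 0.34 in PSN1. The split of members was then 3 higher and 6 lower in MIAPACA2, in place of 1 and 11, and 6 higher and 0 lower in PSN1, in place of 5 and 2. All genes shifted the same way: 75.1% of those called were then higher in MIAPACA2, in place of 49.6%, and 69.1% in PSN1, in place of 42.3%. Under that scaling the MIAPACA2 calls of SRSF1, SRSF3, HNRNPA3, HNRNPK and HNRNPM and the PSN1 calls of SRSF5 and TAF15 were lost. TAF15 lower and HNRNPH3 higher in BXPC3 and MIAPACA2 were called under it too.

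In BXPC3 3 of the 24 genes of the hnRNP class rose (HNRNPH3, HNRNPUL1 and PTBP2) and HNRNPR fell, against 13.2% higher and 16% lower over all genes. HNRNPR went from 219, 214, 201 and 154 CPM to 150, 145, 133 and 121 CPM, a log2 change of -0.52 ± 0.14 (1.43-fold lower, adjusted p = 0.0174 by edgeR), with vehicle replicate 4 just above the treated libraries. That call was lost without vehicle replicate 1, 2 or 3 or AM-9747 replicate 3 (adjusted p up to 0.0573). HNRNPUL1, a relative of the scaffold protein HNRNPU, went from 402, 388, 383 and 382 CPM to 516, 546, 513 and 467 CPM, a log2 change of 0.40 ± 0.10 (1.32-fold, adjusted p = 0.0145), and was lost without vehicle replicate 3 (adjusted p = 0.0546). Neither HNRNPR (adjusted p = 0.404) nor HNRNPUL1 (0.0919) was called in BXPC3 in the joint fit. HNRNPA1 did not pass in BXPC3, at 1540, 1453, 1516 and 1980 CPM in vehicle and 1224, 1526, 1614 and 1887 CPM with AM-9747 (log2 change -0.05 ± 0.16, adjusted p = 0.851). HNRNPM did not pass in BXPC3 either, at 167, 164, 164 and 196 CPM in vehicle and 189, 218, 173 and 175 CPM with AM-9747 (log2 change 0.13 ± 0.12, adjusted p = 0.434).

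In PSN1 all 24 genes of the hnRNP class had a log2 fold change above 0, with a median of 0.74 against 0.03 over all 18287 genes tested. Only HNRNPH3, HNRNPM, HNRNPUL1 and HNRNPUL2 passed, 4 of the 24, against 4.52% higher over all genes. None was lower by edgeR, at an adjusted or an unadjusted p, by DESeq2 or by voom. HNRNPM went from 162, 105, 85.4 and 134 CPM to 295, 228, 201 and 207 CPM, a log2 change of 0.89 ± 0.24 (1.86-fold, adjusted p = 0.0367 by edgeR). HNRNPUL1 went from 226, 225, 205 and 202 CPM to 348, 322, 483 and 461 CPM, a log2 change of 0.87 ± 0.21 (adjusted p = 0.0269). HNRNPUL2 went from 120, 79.2, 67.5 and 81.3 CPM to 160, 150, 135 and 156 CPM, a log2 change of 0.75 ± 0.21 (adjusted p = 0.0444). The treated libraries of these 3 genes lay above every vehicle library, but the genes were picked from those called. How many of all genes separate in this way was not counted. Others reached a similar size with more spread. HNRNPH2, encoded on the X chromosome, stood at 42.3, 12.2, 10.5 and 19.7 CPM in vehicle and 75.4, 54, 30.9 and 47.8 CPM with AM-9747 (log2 change 1.27 ± 0.42, adjusted p = 0.0789). HNRNPR stood at 94.2, 36.7, 21.1 and 38.4 CPM and 153, 106, 52.8 and 61.6 CPM (log2 change 0.94 ± 0.45, adjusted p = 0.198), so vehicle replicate 1 lay within the treated range. For HNRNPK, vehicle replicate 1 (633 CPM) lay above the other 3 vehicle libraries (199, 123 and 214 CPM). It also lay above every treated library (566, 457, 242 and 256 CPM), and HNRNPK did not pass (adjusted p = 0.651 by edgeR).

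**Figure D4:**
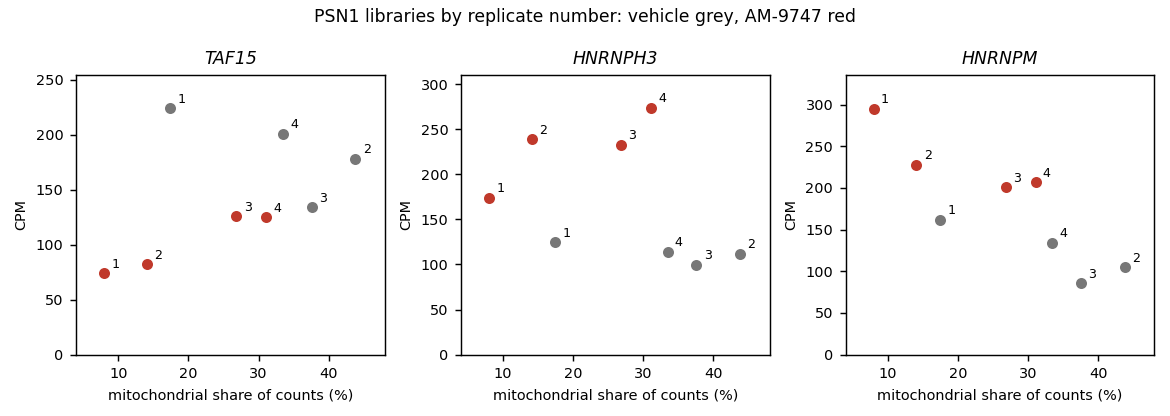
CPM of TAF15, HNRNPH3 and HNRNPM (y axis) against the share of counts from mitochondrial genes (x axis) in the 8 PSN1 libraries, vehicle grey and AM-9747 red, numbered by replicate. Vehicle replicate 1 has a share of 17.4%, below those of treated replicates 3 and 4. For each gene plotted the treated and vehicle CPM values do not overlap. The genes were picked from those called in PSN1, which favours such separation, and its share over all genes was not counted. With the mitochondrial share as a covariate TAF15 and HNRNPM were not called.

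The number of PSN1 calls changed when single libraries were left out and when the mitochondrial share was a covariate. Leaving out vehicle replicate 1 raised the number of members that passed from 7 to 21. Leaving out vehicle replicate 2 or 4, or AM-9747 replicate 2 or 4, left 0, with 10 or 12 members higher and 2 lower at an unadjusted p below 0.05. Without vehicle replicate 3, 5 passed, without AM-9747 replicate 1, 2 passed, and without AM-9747 replicate 3, 1 passed. DESeq2 called 9 members with all 8 libraries. With the mitochondrial share as a covariate 2 members passed in PSN1, HNRNPH3 and HNRNPUL1, while SRSF3, SRSF5, HNRNPM, HNRNPUL2 and TAF15 did not. The share itself differed between the PSN1 groups, at 17.4 to 43.8% in vehicle and 7.98 to 31.1% with AM-9747. That fit therefore cannot fully separate the share from treatment, and a part of the share in the calls was not tested.

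The response differed between the lines for 10 of the 47 members by an F test on the joint fit of 6 groups (21.3% of members, against 12.1% of 22883 genes). These were HNRNPM (adjusted p = 0.00185), SRSF3 (0.00376), HNRNPUL1 (0.0051), SRSF6 (0.0117), HNRNPR (0.0149), HNRNPUL2 (0.016), HNRNPH2 (0.035), TRA2B (0.0354), HNRNPL (0.0356) and HNRNPA0 (0.0457). The joint fit assumes 1 spread for all lines, while the spread was widest in PSN1, and in simulated data with unequal spread this F test and that on vehicle level made more false calls than a fit with a separate spread for each line. All 10 also passed in that fit, which was chosen after seeing the data (adjusted p from 0.00344 for HNRNPM to 0.0495 for HNRNPH2). HNRNPM, SRSF3, HNRNPUL1, SRSF6, HNRNPR and HNRNPUL2 passed on leaving out each of the 24 libraries in turn (adjusted p up to 0.0056, 0.014, 0.0147, 0.044, 0.0476 and 0.047). HNRNPH2, TRA2B, HNRNPL and HNRNPA0 were lost in 15, 14, 16 and 21 of the 24 omissions, with adjusted p up to 0.0957, 0.0803, 0.0819 and 0.0959. The number of members that passed ran from 6 to 30, and the 30 were reached without PSN1 vehicle replicate 1.

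Most of these differences lay between MIAPACA2 and PSN1. In that pair 12 members had a lower response in MIAPACA2 and none a higher one, against 5.64% lower and 4.8% higher over all genes, and 1 member was higher at an unadjusted p below 0.05. The 12 were SRSF3, SRSF7, TRA2B, HNRNPA0, HNRNPA3, HNRNPF, HNRNPH2, HNRNPM, HNRNPR, HNRNPUL1, HNRNPUL2 and TARDBP. The log2 response of HNRNPR in MIAPACA2 was lower than in PSN1 by a difference of -2.12 ± 0.49 (adjusted p = 0.00819 by edgeR), that of HNRNPM by -1.48 ± 0.26 (adjusted p = 7.52e-04), and that of SRSF3 by -1.40 ± 0.27 (adjusted p = 0.00223). Between BXPC3 and MIAPACA2 SRSF6 alone passed (2.13% of members, against 2.07% of all genes, 0.581% higher and 1.49% lower), with a response higher in BXPC3 by 1.04 ± 0.23 on the log2 scale (adjusted p = 0.0159). In MIAPACA2 SRSF6 stood at 188, 177, 188 and 221 CPM in vehicle and 160, 161, 112 and 156 CPM with AM-9747 (log2 change -0.37 ± 0.14, adjusted p = 0.114). Between BXPC3 and PSN1, 3 members passed (8.33% of all genes, 3.58% higher and 4.75% lower): SRSF3, with a lower response in BXPC3 (-1.06 ± 0.27, adjusted p = 0.0198), PTBP2, with a higher one (1.13 ± 0.33, adjusted p = 0.0371), and SRSF12, whose few counts give no usable fold. The dose also differed, at 150 nM in MIAPACA2 and 100 nM in the other lines, so line and dose cannot be told apart in comparisons with MIAPACA2.

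The 3 PTB proteins bind pyrimidine tracts and repress neighbouring exons. PTBP1 is broadly expressed and represses PTBP2 by skipping an exon that leads to NMD, and PTBP2 is the form known from neurons. PTBP2 rose in BXPC3, where it had the largest fold change of any member that rose, from 6.26, 6.51, 6.2 and 5.24 CPM to 13.6, 12.7, 13.8 and 15.9 CPM (log2 change 1.22 ± 0.14, 2.32-fold, adjusted p = 2.77e-04 by edgeR). The groups were far apart, which picking the largest called rise favours, and the share of all genes that separate was not counted. The call held on leaving out each library in turn (adjusted p up to 0.00197). In MIAPACA2 PTBP2 stood at 18.9, 9.82, 10.4 and 19.9 CPM in vehicle and 21.9, 24.8, 11.6 and 19.7 CPM with AM-9747 (log2 change 0.43 ± 0.29, adjusted p = 0.37). In PSN1 it stood at 21.8, 26.1, 21.4 and 28.2 CPM and 25, 23.1, 24.3 and 30.5 CPM (0.03 ± 0.22, adjusted p = 0.948). BXPC3 began from the lowest level, 2.44-fold below MIAPACA2 (adjusted p = 8.85e-05) and 4.03-fold below PSN1 (adjusted p = 2.31e-07). PTBP1 did not pass in any line, and in BXPC3 it stood at 285, 266, 282 and 312 CPM in vehicle and 358, 400, 338 and 270 CPM with AM-9747 (log2 change 0.26 ± 0.13, adjusted p = 0.174). Its log2 change was -0.16 ± 0.11 in MIAPACA2 (adjusted p = 0.374) and 0.28 ± 0.26 in PSN1 (adjusted p = 0.501). PTBP3 did not pass in any line either, with adjusted p of 0.464 in BXPC3, 0.796 in MIAPACA2 and 0.384 in PSN1.

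Averaged over the 3 lines, 10 of 47 members passed, 7 higher and 3 lower, against 23.3% of 22883 genes, 12.6% higher and 10.7% lower, so the share of members was close to that of all genes. HNRNPH3 (0.79 ± 0.09), PTBP2 (0.56 ± 0.14), HNRNPD (0.40 ± 0.14), HNRNPUL1 (0.38 ± 0.08), HNRNPUL2 (0.31 ± 0.09), SRSF7 (0.30 ± 0.09) and SRSF4 (0.28 ± 0.09) were higher on the log2 scale. TAF15 (-1.09 ± 0.13), SRSF5 (-0.37 ± 0.09) and SRSF1 (-0.29 ± 0.08) were lower. HNRNPD, also known as AUF1, was lost in 17 of 24 omissions (adjusted p up to 0.0756) and SRSF4 in 6 (up to 0.0642), and the other 8 were called in all 24. With no filter on low counts HNRNPUL2 (adjusted p = 0.0785), SRSF7, SRSF4 and HNRNPD were not called. Scaling by library totals alone moved the median of all genes by 0.15 here and gave 15 members higher and 1 lower, with SRSF1 and SRSF5 no longer called. Of all genes called, 73% were then higher, in place of 53.9%.

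The levels of most members differed between the lines before treatment. The F test on vehicle level passed for 37 of 47 members, against 76.4% of all genes, and for 34 with a separate spread for each line. Per kilobase of exon in BXPC3 vehicle, HNRNPA1 was the most abundant member at 319 CPM per kb, followed by HNRNPK (135), HNRNPA2B1 (122) and HNRNPC (103). HNRNPA1 also led in MIAPACA2 (351 CPM per kb) and PSN1 (247 CPM per kb) vehicle. PTBP2 (0.468 CPM per kb) and MBNL3 (1.71) were the lowest in BXPC3 after SRSF12. Between BXPC3 and PSN1, 24 members were higher in BXPC3 and 9 lower (31.7 and 30.8% of all genes), and between MIAPACA2 and PSN1 22 were higher in MIAPACA2 and 11 lower (27.3 and 27.2%). Between BXPC3 and MIAPACA2, 12 members were higher in BXPC3 and 4 lower, against 50.3% of all genes, 26.3% higher and 24% lower.

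The widest range between lines belonged to the ESRP genes, epithelial splicing regulators that promote the epithelial exons of receptors and adhesion molecules. ESRP1 stood at 178, 183, 166 and 105 CPM in BXPC3 vehicle and had 0 counts in all 4 vehicle libraries of MIAPACA2 and all 4 of PSN1, where 3 counts over the group, the limit that a count of 0 allows, equal 0.0198 and 0.0291 CPM. Against that limit the level in BXPC3 was at least 7980-fold higher than in MIAPACA2 and at least 5430-fold higher than in PSN1, with counting error only. In treated PSN1 10 counts appeared in 2 of the 4 libraries, and treated MIAPACA2 stayed at 0 counts. In BXPC3 ESRP1 did not change detectably with AM-9747, at 187, 143, 129 and 103 CPM (log2 change -0.17 ± 0.21, adjusted p = 0.587 by edgeR). ESRP2 stood at 82.2, 78.9, 68.5 and 67.9 CPM in BXPC3 vehicle and 11.3, 18.9, 15.4 and 13.7 CPM in PSN1 vehicle, a 5.02-fold difference (adjusted p = 7.82e-05). In MIAPACA2 vehicle it had 27 counts in 3 libraries, and BXPC3 exceeded it 418-fold (95% Poisson interval 287 to 636, counting error only). With AM-9747 ESRP2 went to 52, 59.2, 60.9 and 61.8 CPM in BXPC3, below every vehicle library, but missed the threshold (log2 change -0.34 ± 0.12, adjusted p = 0.052). It was called lower with voom (adjusted p = 0.0111), the mitochondrial covariate (0.0157), the replicate block (0.0448) and without BXPC3 vehicle replicate 4 (0.021), and over all alternatives the adjusted p ran up to 0.7, in the joint fit. In PSN1 it stood at 11.6, 14.9, 21.8 and 15.2 CPM with AM-9747 (0.05 ± 0.29, adjusted p = 0.929).

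**Figure D5:**
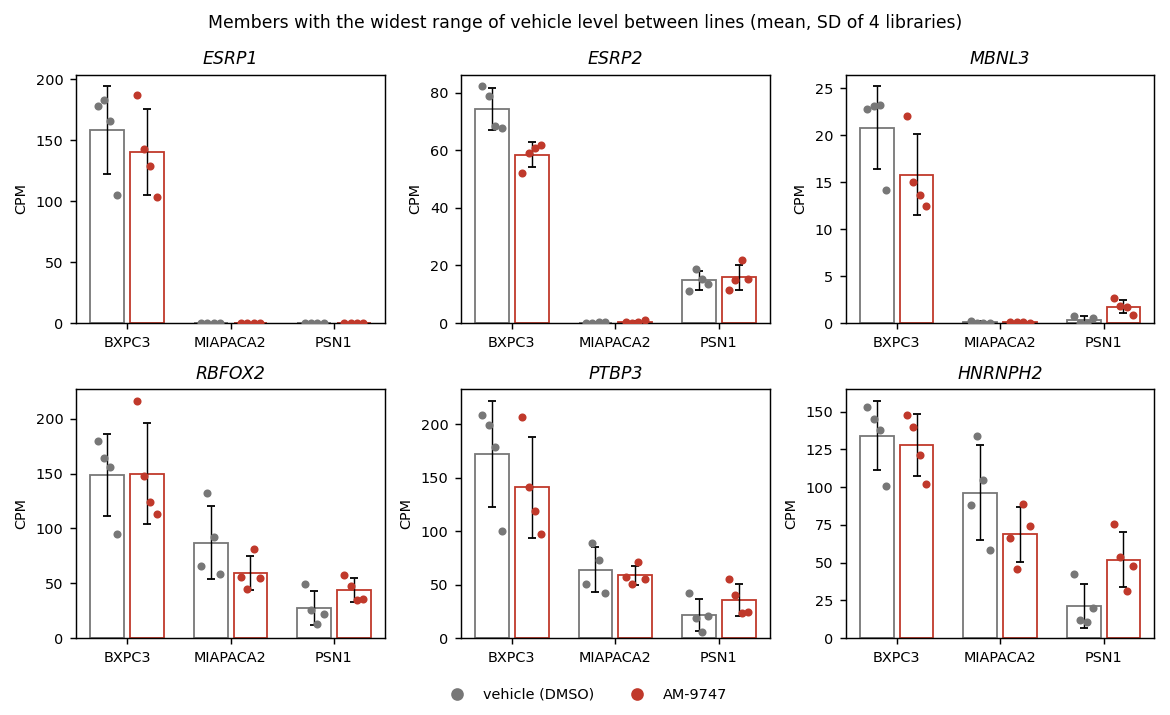
CPM per library (y axis) of ESRP1, ESRP2, MBNL3, RBFOX2, PTBP3 and HNRNPH2, the members with the widest range of vehicle level, in the 3 lines with vehicle (grey) or AM-9747 (red); bars are means and whiskers SD of 4 libraries. All 6 have higher means in both BXPC3 groups than in the other lines, and ESRP1 is at 0 in MIAPACA2 and PSN1 vehicle.

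MBNL3, a muscleblind zinc-finger protein, stood at 22.8, 23.1, 23.2 and 14.2 CPM in BXPC3 vehicle, at 0.762, 0, 0 and 0.526 CPM in PSN1 vehicle, and at 8 counts in 1 library of MIAPACA2 vehicle. The BXPC3 level was 58-fold that of PSN1 (adjusted p = 2.95e-06 by edgeR) and 395-fold that of MIAPACA2 (95% Poisson interval 200 to 912). With AM-9747 PSN1 held 2.63, 1.85, 1.69 and 0.841 CPM, above all of its vehicle libraries (log2 change 2.37 ± 1.21, adjusted p = 0.228). RBFOX2, which binds GCATG next to alternative exons, stood at 180, 164, 156 and 94.6 CPM in BXPC3 vehicle, at 65.3, 132, 92.1 and 58.1 CPM in MIAPACA2 vehicle and at 49.7, 25.8, 13.1 and 22.1 CPM in PSN1 vehicle. BXPC3 exceeded PSN1 5.36-fold (adjusted p = 2.29e-06) and MIAPACA2 exceeded PSN1 3.13-fold (adjusted p = 2.42e-04), while BXPC3 and MIAPACA2 missed the threshold (1.71-fold, adjusted p = 0.0529). RBFOX2 did not pass with AM-9747 in the fit of any single line (adjusted p of 0.971 in BXPC3, 0.21 in MIAPACA2 and 0.278 in PSN1). PTBP3 stood at 209, 199, 179 and 100 CPM in BXPC3 vehicle, 50.8, 89.2, 73.2 and 42.5 CPM in MIAPACA2 vehicle and 41.8, 18.6, 6.07 and 20.5 CPM in PSN1 vehicle, and all 3 pairs of lines differed (2.69-fold, 7.86-fold and 2.93-fold). HNRNPH2 in BXPC3 vehicle, at 153, 145, 138 and 101 CPM, was 6.32-fold above PSN1 (adjusted p = 1.23e-06), and MIAPACA2, at 88.1, 134, 105 and 58.4 CPM, was 4.53-fold above it (adjusted p = 1.72e-05). BXPC3 vehicle replicate 4 was the lowest of its group for ESRP1, MBNL3, RBFOX2, PTBP3 and HNRNPH2. No gene of the tissue-regulated class passed with AM-9747 in any line when edgeR was fitted to all 8 libraries of each line alone with no covariate. At an unadjusted p below 0.05, 1 was lower in BXPC3, 1 lower in PSN1 and none in MIAPACA2, and DESeq2 called none in any line. Voom with library weights called 4 lower in BXPC3, 1 lower in MIAPACA2, and 1 higher and 1 lower in PSN1. Other edgeR fits called MBNL1 and MBNL3 in PSN1 (joint fit of 6 groups), ESRP2 and MBNL1 (replicate block) and ESRP2 and MBNL3 (mitochondrial covariate) in BXPC3, and RBFOX2 and MBNL2 in MIAPACA2 (mitochondrial covariate).

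Across the 6 group means the genes whose log2 level was most like that of ESRP1 were KRT6A, LDHB, GRHL2, CADM1 and CRNN, with Pearson's r from 0.9999 to 0.99997. These 6 points are in effect BXPC3 against the other lines, and 351 of 22882 genes had an r of 0.99 or more.

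Genes that act on these proteins or beside them were taken from fixed lists. Of 9 kinases of SR proteins, 4 rose in BXPC3 (CLK1, CLK3, CLK4 and DYRK1A) and none fell, against 13.2% higher and 16% lower over all genes, and none passed in MIAPACA2 or PSN1. CLK1, which phosphorylates SR proteins in the nucleus, went from 22.9 ± 3.02 to 57.6 ± 8.72 CPM in BXPC3 (SD, n = 4; adjusted p = 2.77e-04 by edgeR), and CLK4 from 7.88 ± 1.05 to 18 ± 1.59 CPM (1.20 ± 0.14, adjusted p = 3.3e-04). Of 35 other splicing regulators 33 were tested in BXPC3, where 8 rose (RBM3, RBM39, CELF1, TIAL1, SRRM1, ACIN1, SAFB2 and LUC7L) and none fell, against the same shares of all genes. In MIAPACA2 3 of 33 rose (RBM39, TIAL1 and SRRM1) and 4 fell (RBM4, RBM5, FUBP1 and PSPC1), against 6.73% higher and 6.84% lower over all genes. In PSN1 3 of 34 fell (RBM25, CIRBP and LUC7L3) and none rose, against 6.17% lower and 4.52% higher over all genes. RBM39, a U2AF-like coactivator of splicing, went from 311 ± 15.6 to 770 ± 171 CPM in BXPC3 (log2 change 1.32 ± 0.16, adjusted p = 4.18e-04) and from 327 ± 67.8 to 574 ± 139 CPM in MIAPACA2 (0.83 ± 0.21, adjusted p = 0.0243). SRRM1, a matrix protein rich in SR repeats, rose by 0.79 ± 0.13 in BXPC3 (adjusted p = 0.002) and 0.92 ± 0.13 in MIAPACA2 (adjusted p = 0.0017). Of 10 NMD factors UPF1 and UPF3B rose in BXPC3, SMG6 fell in MIAPACA2 and UPF1 rose in PSN1, counts near the shares over all genes in each line. UPF1, the helicase that starts NMD, had log2 changes of 0.48 ± 0.14 in BXPC3 (adjusted p = 0.0272) and 0.99 ± 0.22 in PSN1 (adjusted p = 0.0205). PRMT5, the target of the compound, rose in PSN1, from 48.7 ± 10.4 to 96.9 ± 27 CPM (adjusted p = 0.0328). BXPC3 had 109 ± 6.84 CPM of it in vehicle and 136 ± 21.3 CPM after treatment (adjusted p = 0.0908), and MIAPACA2 47.5 ± 15.5 and 44.6 ± 11.7 CPM (adjusted p = 0.895).

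A gene count adds up all transcripts of a gene. A shift from a productive transcript to one that is degraded therefore cannot be told apart in it from another change of level. In the GENCODE 29 annotation all 14 SR and TRA2 genes have a transcript of the NMD class, as do 14 of 24 hnRNP genes (58.3%), 33 of all 47 members (70.2%), and 40.5% of the 15627 protein-coding genes tested in the joint fit. A retained-intron transcript is annotated for 33 members (70.2%), against 53.6% of those genes. Members also have more annotated transcripts, with a median of 12 against 7, which gives more chances for either class. These shares were not adjusted for that. Members with many near-identical processed copies could lose reads to them: HNRNPA1 has 75 entries named as its pseudogenes, which held 0.198 to 1.79% of the combined counts in a library. HNRNPUL2 shares 44.1% of its exon bases with the read-through gene HNRNPUL2-BSCL2 on the same strand, which stood at 31.3 CPM, and SRSF9 shares 46.2% with GATC on the other strand, which stood at 50 CPM.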

How the data were processed

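Polyadenylated RNA of 24 libraries was measured. The authors deposited raw counts per gene for all libraries in 1 table, unnormalized as its whole-number values show. The tools named, without roles, are fastp 0.19.8, HISAT2 2.2.0, R 4.0.2 and DESeq2 1.34.0, with the build GRCh38, per the submitters' processing notes. For the counter, the annotation and the strand setting, nothing is given in the sources used here. GENCODE 29 matched 56189 of 60366 entries.

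Here edgeR 4.0.16 (R 4.3.3) filtered genes by group with filterByExpr, scaled libraries by trimmed mean of M values and ran the quasi-likelihood test in each line alone. A joint fit of 6 groups gave the mean response, the difference of response and the vehicle levels. P-values were adjusted by Benjamini-Hochberg over all genes tested, with a threshold of 0.05. Scripts were tested on simulated data. Alternatives were scaling, the filter, DESeq2 1.42.0, voom (limma 3.58.1), a replicate block, the mitochondrial share and leaving out each library. Replicate numbers were not taken as pairs: nothing in the labels ties them across groups, and same-numbered libraries correlated at -0.188 to 0.422. No libraries agreed within sampling noise (lowest chi-square per gene 7.14).

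Per-library values are given for the 5 largest rises and falls called per line, genes called alike in 3 lines, the 6 smallest p of difference, the 6 widest vehicle ranges, and SRSF1, SRSF3, HNRNPA1, PTBP1, PTBP2, ESRP1, ESRP2 and RBFOX2. HNRNPH1, HNRNPF and HNRNPK values outside that rule were chosen after they were seen. The members and lists were chosen with earlier results of these data known.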

Additional observations from a re-analysis of the deposited data

Results flagged for a closer look

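In 8 of the 129 groups of 4 libraries tested, 1 library stood apart from the others by Dixon's criterion, and chance flags about 1 in 20. TAF15 was at 45 CPM in MIAPACA2 AM-9747 replicate 3, against 65.9 to 69.1 CPM in the others. In the same library HNRNPH3 was at 223 CPM, against 312 to 316 CPM, and SRSF6 at 112 CPM, against 156 to 161 CPM. In BXPC3 vehicle replicate 4 HNRNPA1 was at 1980 CPM, against 1453 to 1540 CPM, HNRNPM at 196 CPM, against 164 to 167 CPM, and MBNL3 at 14.2 CPM, against 22.8 to 23.2 CPM. SRSF1 was at 140 CPM in BXPC3 AM-9747 replicate 1, against 127 CPM in each of the others. SRSF2 was at 239 CPM in PSN1 AM-9747 replicate 1, against 310 to 315 CPM.

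The response to AM-9747 differed between the lines by the F test of the joint edgeR fit for 10 members. The adjusted p was 0.00185 for HNRNPM, 0.00376 for SRSF3, 0.0051 for HNRNPUL1, 0.0117 for SRSF6, 0.0149 for HNRNPR and 0.016 for HNRNPUL2. It was 0.035 for HNRNPH2, 0.0354 for TRA2B, 0.0356 for HNRNPL and 0.0457 for HNRNPA0.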

How the results depend on the processing

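Among the 23 members named by the rule above, no response called in the main test or in an alternative changed direction between them. The F tests between lines have no direction, and the other members were not checked for this. The number of members called in BXPC3 (12) was 6 in the joint fit, 28 with voom and 21 with the mitochondrial share as a covariate. In MIAPACA2 (12) these settings gave 6, 21 and 26, and in PSN1 (7) they gave 23, 20 and 2. The mean response (10) gave 16 with library totals only and 6 with no filter. The difference of response (10) gave 6 with no filter, 22 with voom and 21 with DESeq2. Leaving out each library in turn gave 6 to 18 in BXPC3, 7 to 14 in MIAPACA2, 0 to 21 in PSN1, 8 to 19 for the mean, 6 to 30 for the difference and 32 to 41 for the vehicle level. The cause of these changes was not tested.

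With the replicate number as a block the counts were 16 in BXPC3, 8 in MIAPACA2, 16 in PSN1, 14 for the mean, 27 for the difference of response and 32 for the vehicle level. In 4 of 12 cases a library correlated best with its own number, so the numbers are not taken as a pairing.

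The spread in PSN1 limits what its 4 libraries per group can show, and the labels give no extraction or sequencing batch. Gene counts carry no information on which transcript or exon changed. The fit with a separate spread for each line was chosen after seeing the data.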
